A study of Mus musculus with 6 samples.

Results

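The genes described here are 36 mouse genes through which a cell grips the extracellular matrix, namely integrin subunits, the discoidin domain collagen receptors, dystroglycan, syndecans, glypicans and proteins of the focal adhesion. They were listed by gene name, and their Ensembl identifiers were looked up in GENCODE M21 among the 55421 genes of the deposited expected count table. Of the 36, 35 passed the filter on low counts, which kept 16207 genes, and Itgb6 did not. All 6 samples were primary pancreatic stellate cells (PSCs) from C57BL/6 mice, early-passage lines of adult wild-type animals of both sexes per the methods, which were embedded in Matrigel in a transwell insert above mT3 organoids, a mouse pancreatic ductal adenocarcinoma (PDAC) tumor line. The coculture was kept for 48 h at 21% O2 (normoxic PSCs, 3 samples) or at 1% O2 (hypoxic PSCs, 3 samples). PSCs are the fibroblast-like cells of the pancreas that can become cancer-associated fibroblasts. Both groups thus shared the tumor organoids and the gel, there was no group without tumor cells, and the oxygen level reached both cell types.

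Matrigel is a basement membrane gel rich in laminin and type IV collagen, so these cells already lay in ligands of several of the receptors. Integrins are pairs of an alpha and a beta subunit that span the membrane, and the pairing sets which matrix protein is bound. Beta1 joins most of the alpha subunits that bind collagen, laminin or fibronectin, whereas alphav joins several beta subunits and binds ligands with the arginine-glycine-aspartate (RGD) sequence. Syndecans and glypicans carry heparan sulfate chains and hold matrix proteins and growth factors beside the integrins. Inside the cell, talin and kindlins join the beta tail to actin, and focal adhesion kinase and integrin-linked kinase gather there. In pancreatic tumors, fibroblasts make much of the collagen and fibronectin that these receptors bind.

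Libraries held 24749601 to 25914892 counts in normoxic and 25847719 to 31925054 in hypoxic PSCs, and 3 counts, taken as the floor, were worth 0.0943 to 0.122 CPM (counts scaled by library size). Library sizes for CPM include edgeR's TMM factors. Normoxia replicate 2 stood farthest from its group, with a chi-square of 22.45 and 16.02 per degree of freedom against its partners, which differed from each other by 6.32. Hypoxia replicate 2 likewise stood at 11.94 and 10.09 against its partners, which differed by 5.68. The 10 stellate cell and fibroblast markers were all tested and summed to 18550 to 23500 CPM in normoxic and 18930 to 21430 in hypoxic PSCs, 2 of them higher and 2 lower at 1% O2. Leukocyte and macrophage markers were also present. Of 10 epithelial markers 3 were tested and 1 was called, Krt19, which rose from a mean of 0.715 to 22.1 CPM. They summed to 3.23 to 5.31 and 25 to 28.9 CPM. Muc1 averaged 2.57 and 3.83 CPM and was not called (adjusted p = 0.0293, edgeR, at a log2 difference of 0.58). Cpa1 and Prss1 were at 0, and Epcam, Cdh1, Krt8 and Krt18 had group means below 0.1 CPM, with Krt8 at up to 0.231 CPM in a sample. Endothelial markers (1 of 5 tested higher and 2 lower, sums of 10.6 to 15.7 and 14.7 to 21.1 CPM), mesothelial markers (2 of 2 tested higher, 21.1 to 29.5 and 61.2 to 65.5) and Schwann markers (1 of 3 tested higher and 1 lower, 2.39 to 3.53 and 3.26 to 4.24) were low. The 2 mesothelial genes were Wt1 and again Krt19, while Msln, Upk3b and Lrrn4 had means of at most 0.419 CPM and were not tested. In bulk RNA, fewer cells of a type and less RNA per cell cannot be told apart.

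At 1% O2 the adhesion genes did not move together, and in most ligand classes single members rose or fell. The collagen receptors Itga11, Itga10 and Itga2, the laminin receptor Itga7, the RGD receptor subunits Itgb8, Itgb3 and Itga2b, Itgb7, syndecan Sdc4 and glypican Gpc3 rose. Itga4, Itga6, Itga8 and Gpc4 fell. The shared subunit Itgb1 and the 5 focal adhesion proteins were not called. A gene was called with edgeR's quasi-likelihood test at a fold change beyond 1.5 and a Benjamini-Hochberg adjusted p under 0.05 over all 16207 genes. Of the 35 tested, 14 were called, beside 34.2% of all tested genes, 10 of them higher (all genes, 18.9%) and 4 lower (15.3%). Their median log2 fold change was 0.30, against 0.00 for all tested genes. Hypoxic and normoxic samples did not overlap in CPM for 25 of the 35, beside 68.9% of all genes, with 20 above (34.9%) and 5 below (34.0%). The share called in both directions together was close to the background, and by direction more members lay above than below, as a description with no test. The counts of called and of higher members include Itgb7, which passed the filter only through the hypoxic samples. Without normoxia replicate 2 the same 14 genes were called. Nothing in the labels says that the 3 samples of a group came from separate PSC lines, so p-values measure the spread between these samples, which may be technical.

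**Figure D1:**
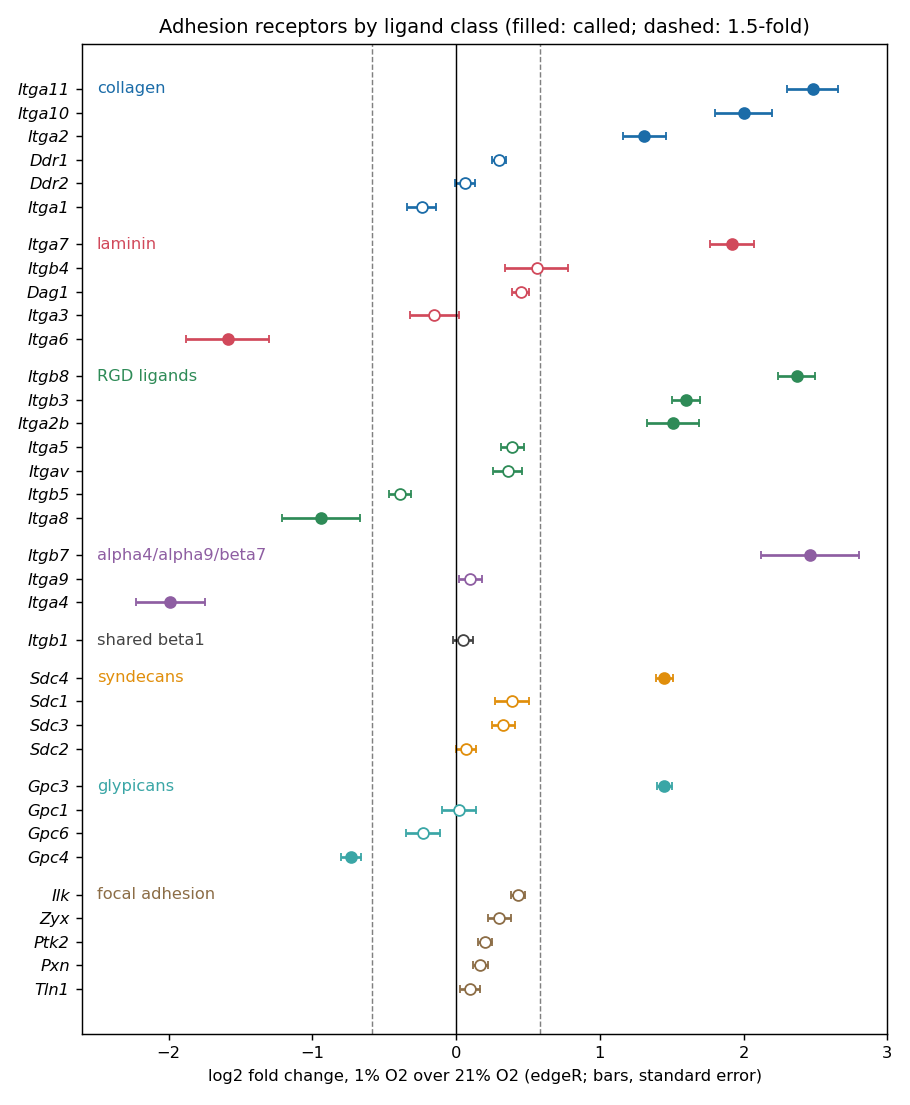
Log2 fold change of the 35 tested adhesion genes, 1% O2 over 21% O2, from edgeR, with bars of 1 standard error, ordered within ligand class; filled points were called and dashed lines mark a fold change of 1.5. Within collagen receptors values run from -0.24 (Itga1) to 2.48 (Itga11), while the 5 focal adhesion proteins lie between 0.10 and 0.43.

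Among collagen receptors, 3 of 6 were called, all higher (all tested genes, 18.9% higher). Itga11, on chromosome 9 from 62677826 to 62783982 on the plus strand of GRCm38 (ENSMUSG00000032243), encodes alpha11, the partner of beta1 that binds fibrillar collagen and marks fibroblasts. It had 2213, 1326 and 2206 counts in normoxic PSCs and 11157, 12850 and 12958 in hypoxic PSCs. As CPM these were 85.2, 50.3 and 89.5 against 438, 410 and 407. Every hypoxic sample lay far above every normoxic sample, the lowest normoxic value being that of replicate 2. The log2 fold change was 2.48 ± 0.18 (SE), or 5.58 times the normoxic level (adjusted p = 5.16e-06, edgeR).

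The other alpha subunits that bind collagen did not all follow. Itga10, whose alpha10 is best known from cartilage, rose from 2.66, 5.09 and 3.37 to 13.7, 16 and 14.8 CPM, a log2 fold change of 2.0 ± 0.20 (adjusted p = 2.78e-05, edgeR). Itga2, which encodes the collagen receptor subunit of platelets and epithelia, rose from 3.04, 2.47 and 3.0 to 6.20, 7.82 and 7.04 CPM (1.31 ± 0.15, adjusted p = 7.88e-05, edgeR). Groups did not overlap for either gene. Itga1, whose alpha1 prefers the type IV collagen of basement membranes, read 21.9, 18.9 and 21.5 in normoxic and 19.4, 15.3 and 18.0 CPM in hypoxic PSCs. These values overlapped, and the log2 difference of -0.24 ± 0.10 did not pass the test (adjusted p = 0.0618, edgeR). Over the alternative edgeR, DESeq2 and limma fits the adjusted p of Itga1 ranged from 0.0102 to 0.188, but its fold change stayed below that needed for a call. Of the union of Itga10's exons, 1739 bases are shared with Gm42957 on the same strand, so some of its reads are uncertain.

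The discoidin domain receptors are collagen-activated tyrosine kinases outside the integrin family. Ddr2, the form of mesenchymal cells, stood at 541, 467 and 513 CPM in normoxic and 514, 544 and 522 in hypoxic PSCs, with a log2 difference of 0.06 ± 0.07. Ddr1, the form of epithelia, read 109, 106 and 109 against 141, 128 and 130 CPM. The groups did not overlap for Ddr1, but its log2 fold change of 0.30 ± 0.05 (adjusted p = 0.00130, edgeR) was below the fold change of 1.5 needed for a call.

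**Figure D2:**
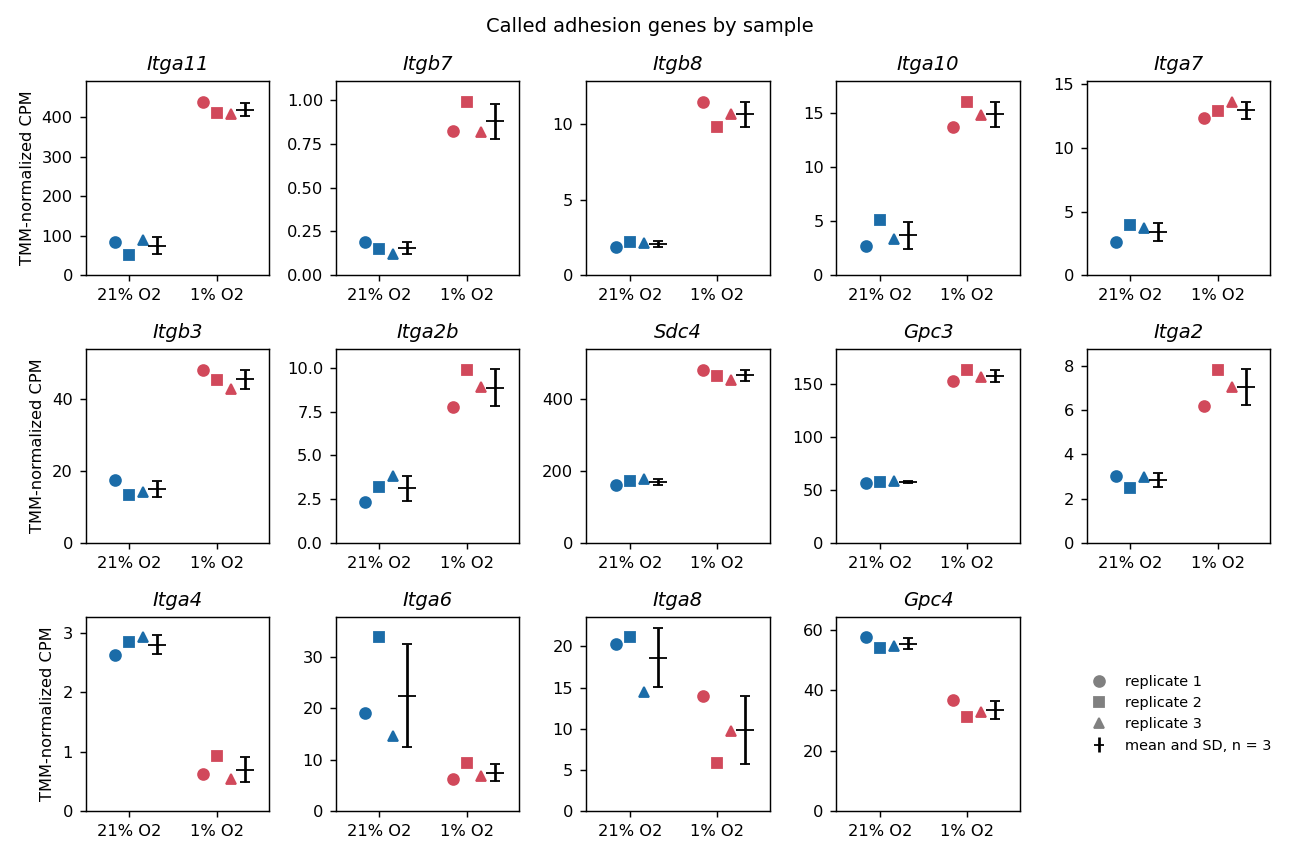
TMM-normalized CPM of the 14 called adhesion genes in each sample at 21% O2 (blue) and 1% O2 (red), with symbols for the replicate number and bars for the mean and SD of 3 samples. The groups do not overlap in any panel; the closest are those of Itga8, where 14.5 CPM at 21% O2 faces 14.0 CPM at 1% O2.

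Laminin receptors moved in opposite directions. Itga7, which encodes alpha7, the laminin receptor subunit typical of muscle, rose from 2.62, 3.91 and 3.73 to 12.3, 12.9 and 13.6 CPM (log2 fold change 1.92 ± 0.15, adjusted p = 6.76e-06, edgeR). Itga6, which encodes alpha6, the laminin receptor subunit of epithelia and many stem cells, fell from 19.0, 33.8 and 14.6 to 6.24, 9.41 and 6.73 CPM (-1.59 ± 0.29, adjusted p = 0.00126, edgeR). Its highest value came from normoxia replicate 2, and without that sample it was still called, at -1.17. The summed leukocyte markers were highest in that sample too, and whether they bear on Itga6 was not tested.

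Itga3, for the alpha3 subunit that binds several laminins, stayed between 3.68 and 5.48 CPM in all 6 samples. Itgb4, whose beta4 pairs only with alpha6, read 2.16, 1.48 and 2.6 against 2.91, 3.38 and 2.89 CPM, with a log2 difference of 0.56 ± 0.22 that did not pass the test (adjusted p = 0.0516, edgeR). The call on Itgb4 depended on the fit, and it was made by limma-voom. Dag1, which encodes both chains of dystroglycan, a laminin receptor outside the integrin family, went from 369, 360 and 408 to 531, 512 and 515 CPM without overlap. That log2 fold change of 0.45 ± 0.06 (adjusted p = 2.34e-04, edgeR) was below the fold change needed for a call.

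Of the 8 subunits of RGD receptors, 7 were tested, 3 were called higher and 1 lower (all tested genes, 18.9% and 15.3%). Itgb8, whose beta8 pairs with alphav and activates latent TGF-beta, rose from 1.85, 2.24 and 2.11 to 11.5, 9.83 and 10.7 CPM (log2 fold change 2.37 ± 0.13, adjusted p = 1.06e-06, edgeR). Itgb3, whose beta3 makes the vitronectin receptor with alphav and the fibrinogen receptor of platelets with alphaIIb, rose from 17.5, 13.4 and 14.2 to 48.3, 45.5 and 43.0 CPM (1.6 ± 0.10, adjusted p = 1.78e-06, edgeR). For both genes the samples of a group lay close together and the groups far apart. Itga2b, for alphaIIb itself, rose from 2.35, 3.19 and 3.81 to 7.78, 9.89 and 8.89 CPM (1.51 ± 0.18, adjusted p = 9.47e-05, edgeR).

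Markers of platelets and megakaryocytes moved with Itga2b and Itgb3. Of the 5 listed, 3 were tested (Pf4, Gp1ba and Gp1bb) and all 3 were called higher. The exons of Gp1bb overlap those of Sept5 and Gm49601 on the same strand, so its reads are uncertain. Gp1ba was low, at 13, 7 and 17 counts in normoxic and 46, 53 and 48 in hypoxic PSCs. Gp1ba passed the filter on low counts through the hypoxic samples, so its call carries less weight. The list summed to 6.78 to 10.9 CPM in normoxic and 19.9 to 33.5 CPM in hypoxic PSCs, most of it Pf4. Ppbp and Gp9, which platelets and megakaryocytes make, had means below 0.1 CPM in both groups. The part of these markers in the change of Itga2b and Itgb3 was not tested.

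Itga8, whose alpha8 binds RGD ligands such as nephronectin with beta1, fell from 20.3, 21.1 and 14.5 to 14.0, 5.78 and 9.68 CPM (-0.94 ± 0.27, adjusted p = 0.0133, edgeR). The lowest normoxic and the highest hypoxic sample all but met, which makes Itga8 the least separated of the called genes. Itga5, the fibronectin receptor subunit, went from 313, 265 and 309 to 414, 357 and 392 CPM, and Itgav from 207, 151 and 185 to 243, 223 and 231 CPM. Their log2 fold changes of 0.39 ± 0.08 and 0.36 ± 0.10 passed the adjusted p alone and were below the fold change needed for a call. Itgb5, the other main partner of alphav, read 502, 419 and 483 CPM in normoxic and 380, 342 and 349 in hypoxic PSCs. The groups did not overlap and Itgb5 lay lower at 1% O2, at -0.39 ± 0.08 (adjusted p = 0.00212, edgeR), again below the fold change for a call. Itgb6, for the epithelial partner of alphav, had 0, 1 and 1 counts against 1, 2 and 0, at or below the floor in every library.

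The alpha4, alpha9 and beta7 subunits, which bind VCAM-1, MAdCAM-1 or tenascin, also split. Itga4, typical of leukocytes, fell from 2.62, 2.85 and 2.92 to 0.628, 0.925 and 0.534 CPM (-1.99 ± 0.24, adjusted p = 1.07e-04, edgeR), that is, from 68, 75 and 72 counts to 16, 29 and 17. Itgb7, its partner in lymphocytes, had 5, 4 and 3 counts in normoxic and 21, 31 and 26 in hypoxic PSCs (log2 fold change 2.46 ± 0.34, adjusted p = 2.14e-04, edgeR). Itgb7 was thus close to the floor at 21% O2 and low at 1% O2. It passed the filter on low counts only through the hypoxic samples, so it had to differ. The counts above include it, and a stricter filter that left it untested called 13 members, 9 higher and 4 lower. Itga9, which binds tenascin-C and VCAM-1 with beta1, stayed between 27.3 and 33.5 CPM (0.10 ± 0.08).

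Leukocyte and macrophage markers were also mostly lower at 1% O2. Of the 16 listed, 13 were tested and 10 were called lower and 0 higher, beside 15.3% and 18.9% of all tested genes. Ptprc, Csf1r and Cd14 were tested and not called. The list summed to 997 to 1789 CPM in normoxic and 494 to 895 CPM in hypoxic PSCs, most of it Lyz2. The T cell gene Cd3e was at 0, and Ptprc, common to leukocytes, averaged 11.1 and 7.32 CPM. Of the leukocyte integrin genes, Itgam (log2 difference 0.00 ± 0.21), Itgb2 (-0.12 ± 0.18), Itgax (0.08 ± 0.28) and Itgal (-0.54 ± 0.26) were not called, Itgal lying lower at 1% O2 without overlap, and Itgad was called lower. The part of these markers in the fall of Itga4 was not tested. The exons of Itga4 share 1124 bases with Cerkl on the opposite strand, and the strand setting of the counting is not given in the sources used here.

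Itgb1, the beta subunit that most of the alpha subunits above require, stood at 858, 745 and 811 CPM in normoxic and at 843, 815 and 838 CPM in hypoxic PSCs. The groups overlapped, and the log2 difference was 0.05 ± 0.07 (adjusted p = 0.554, edgeR).

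Each heparan sulfate family had a single gene that was called higher. Sdc4, on chromosome 2 from 164424247 to 164443887 on the minus strand (ENSMUSG00000017009), encodes syndecan-4, the syndecan of focal adhesions. It went from 161, 171 and 178 to 481, 463 and 451 CPM (log2 fold change 1.45 ± 0.06, a fold change of 2.73, adjusted p = 1.81e-07, edgeR). Gpc3, on chromosome X from 52272426 to 52613950 on the minus strand (ENSMUSG00000055653), encodes glypican-3, a membrane-anchored regulator of growth factors. It went from 56.7, 57.8 and 59.0 to 153, 164 and 157 CPM (1.45 ± 0.05, adjusted p = 8.52e-08, edgeR). The 3 samples of each group were nearly equal for both genes, which gives them the smallest standard errors among the called members.

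Gpc4, whose product acts on growth factor signals at many cell surfaces, fell from 57.5, 54.0 and 54.7 to 36.6, 31.0 and 32.8 CPM (-0.73 ± 0.07, adjusted p = 2.44e-05, edgeR). Gpc1 read 248, 185 and 219 in normoxic and 250, 195 and 219 CPM in hypoxic PSCs, and Gpc6 lay between 62.0 and 90.6 CPM in all samples, with neither called. The remaining syndecans were not called either. Sdc1, the epithelial and fibroblast syndecan, went from 433, 315 and 376 to 547, 433 and 489 CPM, with groups that met at 433 CPM (0.39 ± 0.12, adjusted p = 0.0195, edgeR). Sdc3, best known from neurons, went from 219, 223 and 256 to 284, 320 and 276 CPM without overlap (0.33 ± 0.08, adjusted p = 0.00532, edgeR). Sdc2, the mesenchymal syndecan, lay between 105 and 124 CPM throughout.

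The windows before the start sites of Itga11, Sdc4 and Gpc3, the called members with the highest levels per length at 1% O2, are shown because they are the sequences that transcription factors would read there. Each holds the 250 bases upstream of the RefSeq start in GRCm38.p6, on the gene's own strand. Itga11 lies at chr9:62677605-62677854 (plus), with its last 29 bases in the annotated first exon in GENCODE M21. Sdc4 lies at chr2:164443189-164443438 (minus), inside the annotated gene but in none of its exons. Gpc3 lies at chrX:52613975-52614224 (minus), outside exons. Capitals mark GCGTG on either strand, which is read as CACGC where it lies on the opposite strand.
Itga11: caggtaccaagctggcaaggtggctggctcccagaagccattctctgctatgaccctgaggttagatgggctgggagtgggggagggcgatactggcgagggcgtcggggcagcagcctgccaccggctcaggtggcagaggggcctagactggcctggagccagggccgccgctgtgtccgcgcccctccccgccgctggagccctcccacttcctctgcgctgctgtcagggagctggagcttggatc
Sdc4: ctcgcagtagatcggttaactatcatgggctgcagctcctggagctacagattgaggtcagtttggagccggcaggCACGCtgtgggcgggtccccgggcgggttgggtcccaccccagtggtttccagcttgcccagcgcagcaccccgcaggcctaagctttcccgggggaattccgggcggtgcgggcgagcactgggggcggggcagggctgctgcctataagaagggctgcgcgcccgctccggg
Gpc3: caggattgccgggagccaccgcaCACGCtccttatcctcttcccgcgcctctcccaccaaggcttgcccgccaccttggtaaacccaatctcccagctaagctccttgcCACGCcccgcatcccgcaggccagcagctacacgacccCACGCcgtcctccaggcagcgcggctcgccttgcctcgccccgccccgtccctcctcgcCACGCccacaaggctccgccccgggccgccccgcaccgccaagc

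The letters ACGTG and GCGTG, the forms of the core to which hypoxia-inducible factors bind, were searched on both strands, and GCGTG was added after ACGTG had been counted in these data. ACGTG was in 0 of the 8 windows of members called higher, in 16.6% of all RefSeq windows of this length and in 21.1% of those of tested genes. GCGTG was in 3 of these 8 (Gpc3, Sdc4 and Itga2), against 28.2% of all windows and 43.0% of those of tested genes. Among the 3 members called lower with a window, ACGTG was in 0 and GCGTG in 1 (Gpc4). TGANTCA and GGGCGG, searched the same way and also added later, were in 0 and 2 of the 8 windows of members called higher and in 4.8% and 55.7% of those of tested genes. Of the 36 members, 27 had a RefSeq window, and Itgb3, Itgb4, Itga6, Itga7, Gpc1, Gpc6, Sdc2, Ptk2 and Pxn did not. Gpc3 held 4 matches, Sdc4 1 and Itga11 0.

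The 5 focal adhesion proteins, which lie between integrins and the cytoskeleton, had log2 differences of 0.10 to 0.43. Ilk, for integrin-linked kinase, went from 192, 187 and 190 to 258, 247 and 259 CPM (0.43 ± 0.05, adjusted p = 8.10e-05, edgeR). Of its 2744 exon bases, 2461 are shared with Rrp8 and Taf10 on the opposite strand, so the value is uncertain if strand was not used. Zyx, for the tension-sensing zyxin, went from 126, 114 and 143 to 151, 157 and 163 CPM (0.30 ± 0.08). Ptk2 (focal adhesion kinase) and Pxn (paxillin, its docking partner) differed by 0.20 ± 0.05 and 0.17 ± 0.05 on the log2 scale. Tln1, for talin-1, which switches integrins on, read 295, 258 and 314 against 316, 301 and 313 CPM. None of the 5 was called, and 4 of them, all but Tln1, passed the adjusted p alone, as 62.7% of all tested genes did.

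Levels of different genes were compared per length, as TPM, which are counts over the union of exons scaled to the same total in every sample. At 21% O2 the order was led by Itgb1 (658 TPM), Itgb5 (439), Sdc1 (328), Ilk (230), Sdc4 (223) and Itga5 (200). At 1% O2 it was led by Itgb1 (715 TPM), Sdc4 (640), Sdc1 (451), Itgb5 (353), Ilk (326), Dag1 (287) and Itga11 (286). Sdc4 passed from rank 5 to rank 2 of the 36 and Itga11 from rank 18 to rank 7, the longest climb among the 36. The order of close neighbours is not resolved, since Ilk and Sdc4 at 21% O2, or Dag1 and Itga11 at 1% O2, differ by less than their spread. Itgb7 and Itga4, at most 1.11 TPM in either group, were near the bottom beside Itgb6.

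**Figure D3:**
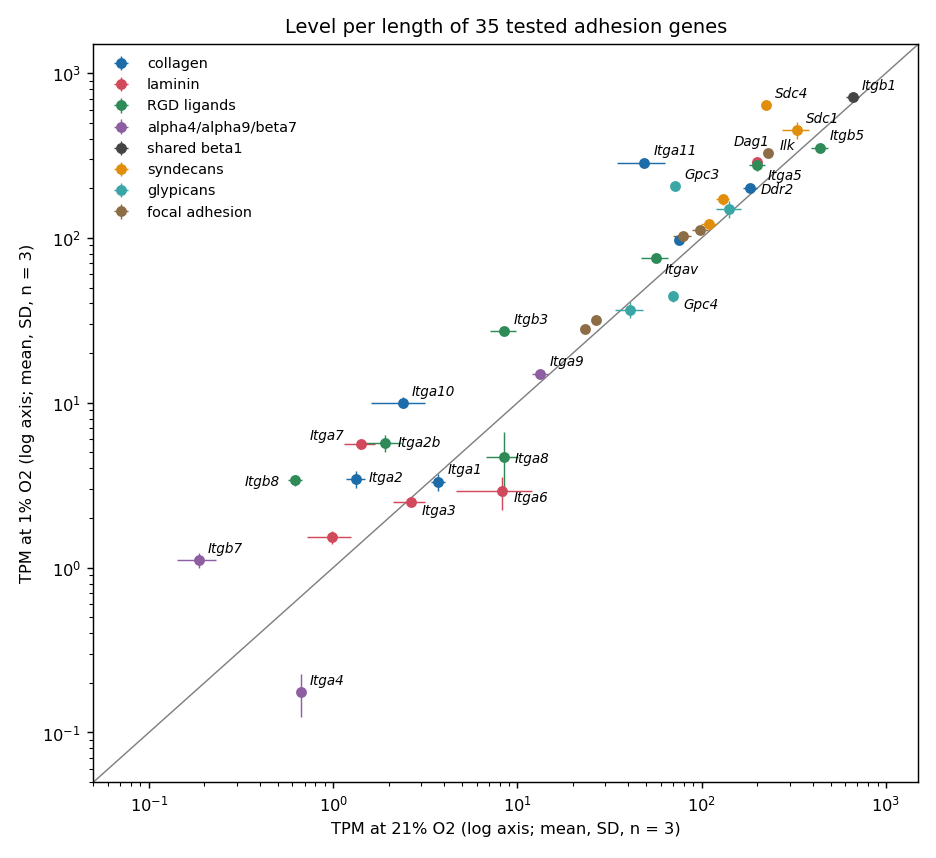
Mean TPM of the 35 tested adhesion genes at 1% O2 against 21% O2 on log axes, with bars for the SD of 3 samples, coloured by ligand class; the line marks equal levels. Itgb1 sits on the line at the top (658 and 715 TPM), while Itga11 (48.8 and 286 TPM) and Sdc4 (223 and 640 TPM) lie well above it.

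Set against their own families, these changes altered the composition of the transcripts. Among the 13 alpha subunits, Itga11 made 13.8% ± 2.76 (SD, n = 3) of the summed TPM in normoxic and 41.4% ± 0.93 in hypoxic PSCs. Itga5 was first at 21% O2 with 57.3% ± 0.929, and at 1% O2 its share was 39.9% ± 1.24, close to that of Itga11. With the longest transcript as length, Itga5 averaged 39.0% and Itga11 37.4% at 1% O2, so their order there depends on the length used. The summed alpha TPM was 349 ± 39.4 against 691 ± 31.3, and most of the difference lay in the 4 collagen-binding subunits, whose sum was 56.2 ± 13.8 against 303 ± 9.35 TPM. The 7 beta subunits summed to 1107 ± 100 and 1101 ± 30.2 TPM, with Itgb1 at 59.4% ± 0.706 and 65.0% ± 0.979 and Itgb3 at 0.765% ± 0.0631 and 2.46% ± 0.113. The alpha sums of the groups lay apart by more than their spread and the beta sums did not.

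The 3 laminin-binding alpha subunits summed to 12.3 ± 3.32 TPM in normoxic and 11.0 ± 0.741 TPM in hypoxic PSCs, within the spread, while their make-up turned over. Itga6 made 65.8%, 76.9% and 53.3% of this sum at 21% O2 and 23.7%, 31.5% and 23.5% at 1% O2. Itga7 made 10.1%, 9.91% and 15.2%, then 52.0%, 48.2% and 53.0%. Itga3 kept a mean of 22.9% and 22.7%. With the length of the longest transcript in place of the union of exons, Itga6 averaged 72.7% and 29.7% and Itga7 12.7% and 55.8%, the same order at each oxygen level.

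In the heparan sulfate families, Sdc4 made 28.3% ± 2.82 of the syndecan TPM at 21% O2 and 46.3% ± 0.958 at 1% O2, where it was ahead of Sdc1 (32.5% ± 2.61). The syndecan sum was 791 ± 64.3 against 1385 ± 54.6 TPM. Gpc3 made 22.3% ± 2.20 and 47.2% ± 3.67 of the glypican TPM, and Gpc1, first at 21% O2 with 43.4% ± 2.51, averaged 34.3% ± 2.82 at 1% O2.

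**Figure D4:**
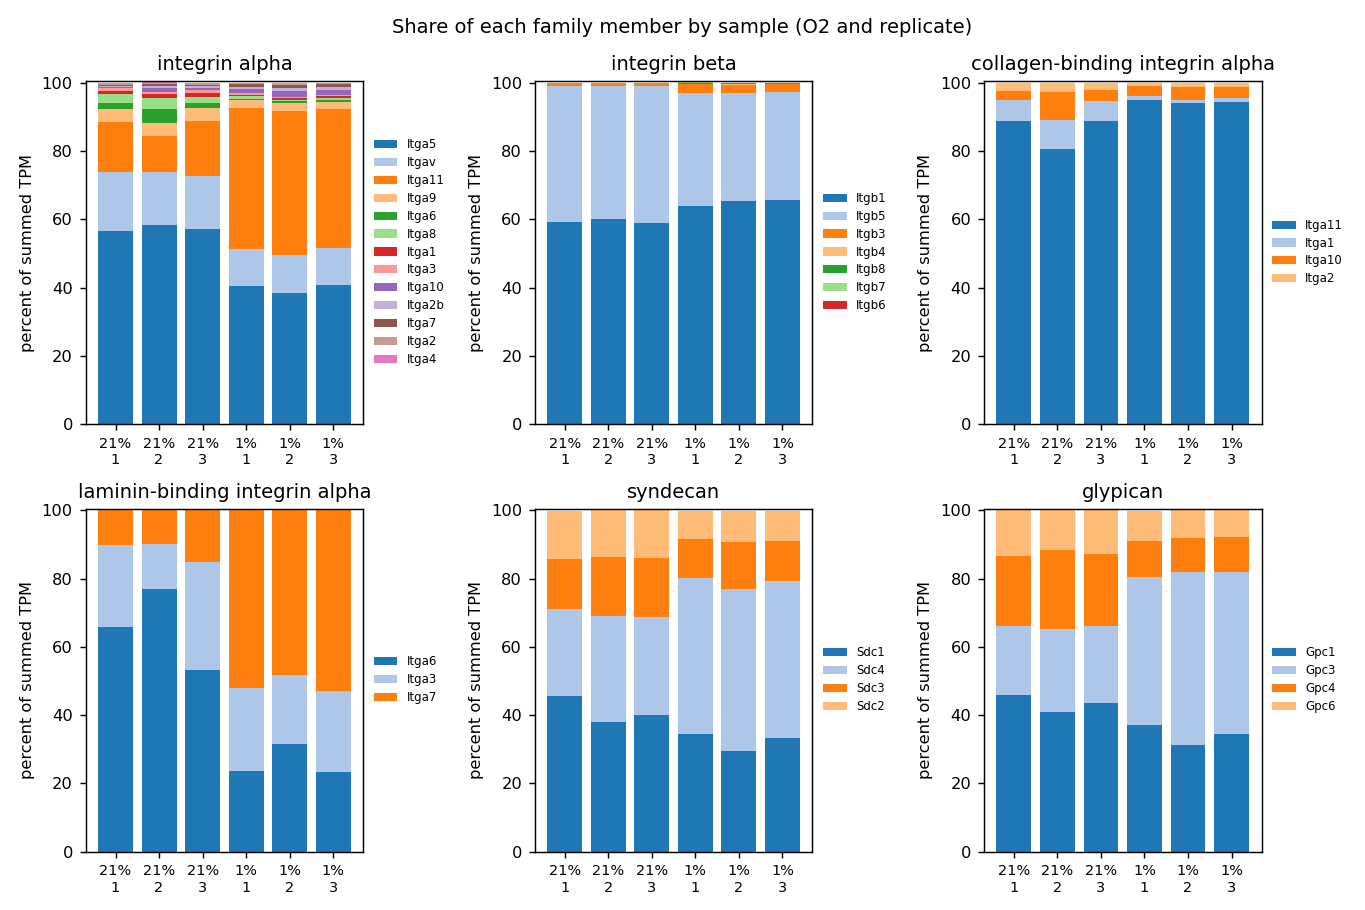
Share of each gene in the summed TPM of its family, in percent, for each of the 6 samples (O2 level and replicate number below the bars). At 21% O2 the laminin-binding bars differ among replicates, Itga6 taking from 53.3% to 76.9%; between the groups, Itga11 widens among alpha subunits, Itga7 takes the place of Itga6 among laminin-binding subunits, and Sdc4 and Gpc3 widen in theirs.

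The ratio of 2 members per length within a sample was compared for 9 pairs that share a ligand or a partner. Itga11 over Itga1 was 14.1, 9.63 and 15.1 in normoxic and 82.0, 97.0 and 81.8 in hypoxic PSCs, a log2 difference of 2.77. Itgb3 over Itgb5, rival partners of alphav, was 0.0210, 0.0193 and 0.0177 against 0.0765, 0.0803 and 0.0741 (2.0), so Itgb5 remained the far more abundant at both levels. Itga6 over Itga3 was 2.74, 5.81 and 1.69 against 0.977, 1.54 and 0.996 (-1.39). The level of this ratio depends on the length used, the mean levels of Itga6 and Itga3 at 1% O2 being 2.90 and 2.50 TPM with the union of exons and 4.64 and 2.24 TPM with the longest transcript. The groups did not overlap for any of these 3 ratios. Nor did they for Itgb3 over Itgb1 (1.56), Sdc4 over Sdc2 (1.38), Sdc1 over Sdc4 (-1.06), Gpc1 over Gpc6 (0.25) and Ddr1 over Ddr2 (0.24). Each of these 8 had the smallest p that an exact two-sided permutation test of 3 against 3 samples can give, 0.1, or 0.112 after Benjamini-Hochberg adjustment over the 9 pairs, so none could pass 0.05. The exception was Itga5 over Itgav, at 3.28, 3.82 and 3.65 against 3.71, 3.50 and 3.70 (exact permutation p = 0.8).

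The ligands and adaptors of these receptors were described from 6 further lists of 95 genes, of which 85 were tested. Of these, 26 were called (all genes, 34.2%), 15 higher (all genes, 18.9%) and 11 lower (15.3%). By adjusted p alone, 24 lay higher and 29 lower. Of 12 collagen ligand genes, 1 rose and 1 fell. Col5a3, a minor fibrillar collagen chain, rose from a mean of 386 ± 26.6 to 1386 ± 183 CPM (log2 fold change 1.84 ± 0.10, adjusted p = 9.92e-07, edgeR), and Col11a1 fell from 9.81 ± 3.11 to 1.38 ± 0.274 (-2.84 ± 0.27). Col1a1, the main type I collagen chain that alpha11 binds, had a log2 difference of 0.03 ± 0.14 and was not called. Col1a2, the other type I chain, averaged 8181 CPM in normoxic and 5929 CPM in hypoxic PSCs, without overlap. Its log2 difference of -0.46 ± 0.11 (adjusted p = 0.00476, edgeR) was below the fold change for a call. By adjusted p alone, 1 of the 12 lay higher and 5 lower.

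Of 14 laminin and basement membrane genes, 3 rose and 5 fell (all tested genes, 18.9% and 15.3%). The 5 include Lama3, named here after its value was seen, with 41, 58 and 22 counts in normoxic and 6, 8 and 3 in hypoxic PSCs. Lama3 passed the filter only through the normoxic samples, so it had to differ. Lamb2, for the beta2 chain, rose by 0.83 ± 0.07 on the log2 scale. Lama1, the alpha chain of the laminin in basement membrane gels, changed by -2.82 ± 0.27 and the nidogen gene Nid2 by -2.11 ± 0.09. Among 19 other ligands, 7 rose and 1 fell, with Tnc, a ligand of alpha9 and of alphav receptors, at 1.21 ± 0.18, Edil3, a ligand of alphav receptors, at 1.17 ± 0.27 and Vcam1, the ligand of alpha4beta1, at -0.91 ± 0.06. Fn1, the ligand of alpha5beta1, was among the 7 and rose from 7395 ± 1670 to 13800 ± 609 CPM (0.90 ± 0.15, adjusted p = 7.98e-04, edgeR). Col1a1, Col1a2 and Fn1 are named as ligands, after their values were seen.

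Of 31 focal adhesion partners, 4 rose and 2 fell, and their median was -0.23. Lims2 (PINCH-2, a partner of integrin-linked kinase) rose by 1.33 ± 0.10 and Fermt2 (kindlin-2, the integrin activator of most tissues) by 0.88 ± 0.06 on the log2 scale, from 128 ± 7.91 to 235 ± 3.20 CPM for Fermt2. Itgb1bp1 (ICAP-1, which binds the beta1 tail and holds it inactive) changed by -0.75 ± 0.06 and Fermt3 (kindlin-3 of blood cells) by -0.67 ± 0.20. Of the 5 other integrin subunits tested, 1 was called lower, Itgad of macrophages, named here after its value was seen. It averaged 0.962 and 0.216 CPM and passed the filter only through the normoxic samples, so it had to differ. Of 4 other glypicans and collagen receptors, 1 fell, Lair1, a collagen receptor of leukocytes, at -0.79 ± 0.28. Fermt3 and Lair1 are leukocyte genes, and the leukocyte marker sum given above was lower at 1% O2, but its part in them was not tested.

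**Figure D5:**
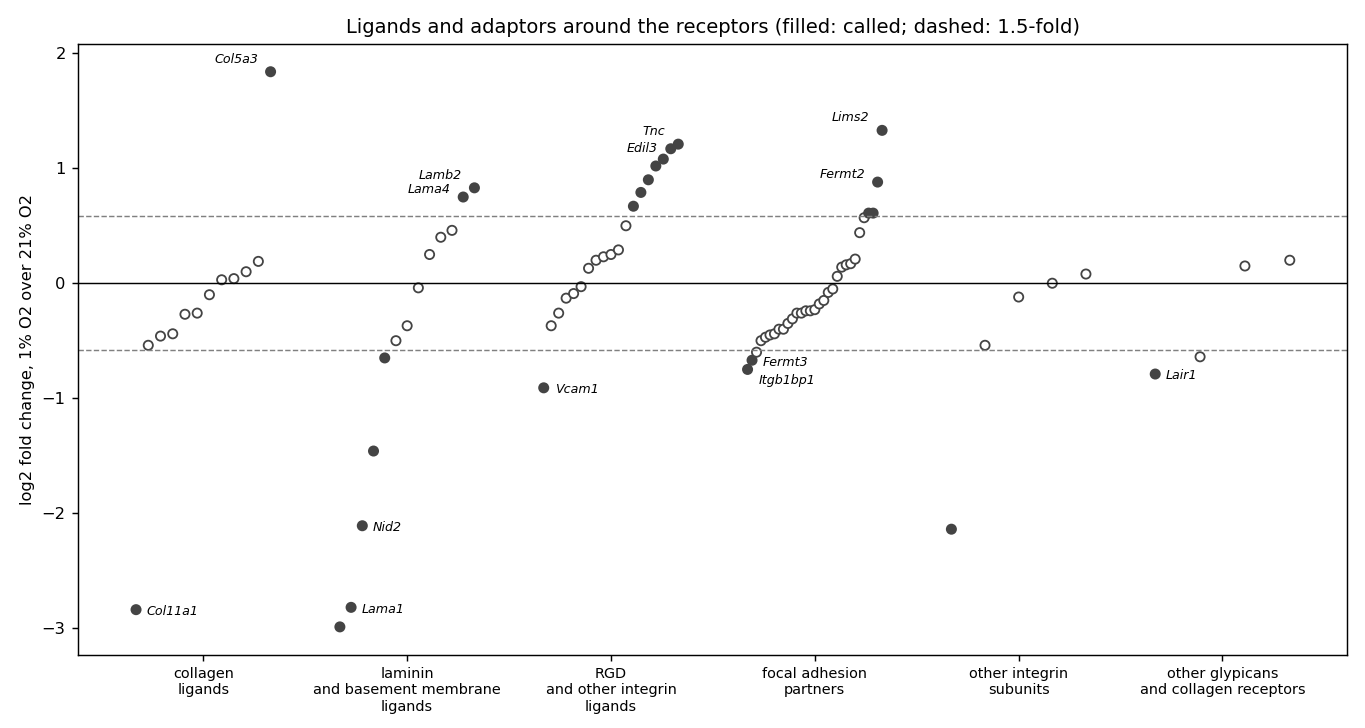
Log2 fold change, 1% O2 over 21% O2, of the tested ligand, adaptor and related genes in 6 lists, 1 gene not drawn, in rank order within each list; filled points were called, dashed lines mark a fold change of 1.5 and the genes named by rule are labelled. Basement membrane ligands spread from -2.99 to 0.83, while most focal adhesion partners lie between the dashed lines.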

How the data were processed

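RNA of 6 samples (3 per group) was analysed. Per the methods and the labels, the authors made poly(A) libraries, trimmed adapters, mapped reads to GRCm38 with STAR 2.6.1b and counted genes with RSEM 1.3.1. Expected counts for 55426 features were deposited by the authors, made by RSEM from the mapped reads and not normalized. Of these, 5 are reporter rows with 0 counts. None had a fraction, so rounding changed nothing. The annotation release, the strand setting and whether replicates were separate PSC lines are not given in the sources used here. Of the identifiers, 55240 were in GENCODE M21 and 181 gene identifiers were not.

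Genes were tested with edgeR 4.0.16 (R 4.3.3; filterByExpr, TMM, quasi-likelihood F test, Benjamini-Hochberg). The SE of a log2 fold change is its size over the square root of F. TPM were counts over union exon length, scaled to the same total in each sample. The test was checked on simulated data with 200 of 16207 genes changed, where edgeR recovered 183 and made 10 false calls. In the data 34.2% of genes were called, so the simulation does not check scaling under so wide a change. Alternatives were DESeq2 1.42.0, limma-voom (limma 3.58.1), other scalings, filters, thresholds and length or GC corrections, and leaving out each replicate. GC content came from the longest transcript of each gene. All 36 members are named. From each further list, the 2 highest and the 2 lowest called genes at a mean of at least 1 CPM are named, except 1 gene that is not reported here. The members and all gene lists, 7 of markers included, were chosen with earlier results of these data known. Reads carry no molecular identifiers, so the floor of 3 counts covers counting error only.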

Additional observations from a re-analysis of the deposited data

How the results depend on the processing

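The same 14 adhesion genes were called under DESeq2's size factors, upper-quartile scaling, centring on the median gene, no filter, DESeq2, limma-voom and the length and GC corrections, and Itgb7 alone dropped out under a stricter filter that left it untested. Leaving out 1 replicate gave 14 to 15 called adhesion genes, 23 to 28 called ligands and adaptors and 5226 to 5662 called genes in all. With no fold change threshold the counts were 25, 53 and 10168, and at a fold change of 2 there were 12 adhesion genes (10 higher and 2 lower, without Itga8 and Gpc4), 13 ligands and adaptors and 3156 genes in all. Itgb4 was called under limma-voom (0.60, adjusted p = 0.0378) and without normoxia replicate 3 (0.75, adjusted p = 0.0293). Leaving out 1 replicate, members near 0 changed sign, with log2 differences from -0.01 to 0.10 (Ddr2), -0.28 to 0.00 (Itga3), -0.01 to 0.09 (Itgb1), -0.01 to 0.11 (Sdc2) and -0.09 to 0.13 (Gpc1), as did the log2 ratio of Itga5 to Itgav (-0.04 to 0.07). Gpc1 also changed sign with the length (-0.04) and GC (-0.06) corrections and Ddr2 with the length correction (-0.02). The cause was not tested. Same-numbered samples of the 2 groups had correlations of 0.14, 0.14 and 0.04 between their deviations. Every sample correlated best with its own number, a hint of pairing from the data, but the third pair was below 0.1 and the labels do not say that the numbers mark a shared culture or day, so no pairing was assumed. A replicate block gave 14 adhesion genes, 27 ligands and adaptors and 5572 genes in all. With the longest transcript as length, 54 of 72 mean TPM moved by over 1 SD, with a rank correlation across genes of 0.99. The floor of 3 counts limits Itgb6 and Itgb7.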
